A study of Rattus norvegicus with 36 samples.

Results

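The prelimbic cortex (PL) of rats kept from cocaine for 4 weeks was compared with the PL of cocaine-naïve rats in 8 of the 36 small RNA samples of this series, across all of its mature miRNAs. The 8 samples were chosen by the region and group in their labels, with 4 male rats in each group and no use of any measured value. All rats were heterogeneous stock (HS) rats, an outbred line, and their brains were snap-frozen. The abstinence rats (M170, M363, M472 and M456) had extended access to intravenous cocaine self-administration and then 4 weeks of forced abstinence. The naïve rats (M157, M378, M476 and M480) had no cocaine. The rest of the series holds the infralimbic cortex (IL) and the nucleus accumbens (NAc) of the same rats, and the same 3 regions of 4 rats at acute withdrawal, given as 16 h in the labels. The sources differ on that interval. Each sample is 1 region of 1 animal, dissected whole, so that less of a miRNA per cell and fewer cells that hold it cannot be told apart.

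A miRNA is cut from a hairpin precursor into a pair of strands, named 5p and 3p after the arm they come from. One strand is usually the more abundant guide, which is loaded into an Argonaute protein and pairs with messenger RNAs through its seed, bases 2 to 8, while the other, the passenger, is mostly degraded. In the brain, miRNAs act at the synapse and in neuronal gene control. The PL is a subdivision of the medial prefrontal cortex of the rat, projects to the accumbens and is known for its part in drug seeking.

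Of 723 miRNAs in the table, 457 had enough counts to be tested. The filter ran over all 36 samples, so a miRNA could be tested through its counts in another region or group. With the 12 PL samples alone 407 were tested, and with the 8 alone 388. Among the 457, 11 (2.41%) passed a fold change threshold of 1.5 in either direction together with an unadjusted p under 0.05, by edgeR's quasi-likelihood test. Of these, 9 were lower after abstinence (1.97% of those tested) and 2 were higher (0.438%). With size factors by the RLE method in place of TMM the 12 calls were split into 6 lower and 6 higher, and with DESeq2 the 13 calls into 6 lower and 7 higher. After Benjamini-Hochberg adjustment 0 miRNAs had an adjusted p under 0.05 in edgeR, where the lowest was 0.428 and 22 had an unadjusted p under 0.05, and limma-voom and DESeq2 also gave 0. Each of the 9 lower calls was lost when 1 sample, the PL of naïve rat M378, was left out.

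The mature sequences of 9 of these 11 miRNAs follow, with those of a sister arm and of 4 miRNAs whose abstinence and naïve rats did not overlap, because the seed sets which messenger RNAs each can pair with. They are from RefSeq (build GRCr8), 5′ to 3′, and capitals mark the seed.
rno-miR-128-1-5p: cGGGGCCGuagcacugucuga
rno-miR-128-2-5p: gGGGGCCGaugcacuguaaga
rno-miR-873-3p: gAGACUGAcaaguucccggga
rno-miR-664-2-5p: cUGGCUGGggaaaaugauugg
rno-miR-667-3p: uGACACCUgccacccagcccaa
rno-miR-501-3p: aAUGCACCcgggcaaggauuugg
rno-miR-331-5p: gGUCUUGUuuggguuuguu
rno-miR-3099: uAGGCUAGaaagagguugggga
rno-miR-194-3p: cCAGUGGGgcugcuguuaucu
rno-miR-741-3p: aAAGAUGCcacgcuauguagau
rno-miR-412-5p: uGGUCGACcagcuggaaagu
rno-miR-337-5p: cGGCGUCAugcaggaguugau
rno-miR-135a-3p: uGUAGGGAuggaagccaugaaa
rno-miR-130a-3p: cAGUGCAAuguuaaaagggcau

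The 9 called miRNAs with a sequence held 9 distinct seeds, so no seed was shared among them. Among all tested miRNAs, the seed of miR-128-1-5p was shared with miR-128-2-5p, and that of miR-501-3p with miR-500-3p. The arms miR-128-1-5p and miR-128-2-5p differ at 5 positions outside the seed (C1G, U9A, A10U, C18A and U19A, counted from the 5′ end, with miR-128-1-5p first). The called miRNAs come from separate places in the genome. miR-128-1-5p lies within the bounds of R3hdm1 (chr13:42251898-42251918, plus strand), miR-873-3p within Lingo2 (chr5:56153114-56153134, minus strand), miR-664-2-5p within Rab3gap2 (chr13:99324650-99324670, plus strand), miR-331-5p within Vezt (chr7:30414457-30414475, minus strand) and miR-501-3p within Clcn5 on the X chromosome (chrX:17927239-17927261, plus strand). miR-667-3p (chr6:134555392-134555413, plus strand) belongs to the imprinted Dlk1-Dio3 locus, a large miRNA cluster expressed from the maternal chromosome. miR-3099 (chr1:76057109-76057130, minus strand) and miR-194-3p (chr1:212994074-212994094, plus strand) lay within no gene of the RefSeq table other than miRNA genes.

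The abstinence samples held between 9595922 and 11852582 counts and the naïve samples between 7517269 and 9911807, so depth partly followed group. Their RNA integrity numbers (RIN) were 7.4 to 9.1 after abstinence and 8.5 to 9.1 in naïve rats. The 10 most abundant miRNAs took 63.2% to 67% of the counts. miR-128-3p, a guide strand abundant in neurons, alone took 30% ± 3.65 (SD, n = 4) after abstinence and 26.2% ± 8.39 (SD, n = 4) in naïve rats. The others were miR-125a-5p, miR-127-3p, let-7c-5p, miR-328a-3p, miR-26a-5p, miR-125b-5p, let-7a-5p, miR-129-5p and let-7i-5p, and none of the 10 passed the thresholds. The naïve rats varied more than the abstinence rats. The SD of log2 CPM, the counts scaled to a common library size, was larger among naïve rats for 292 of 457 miRNAs, with a median of 0.507 against 0.354.

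**Figure D1:**
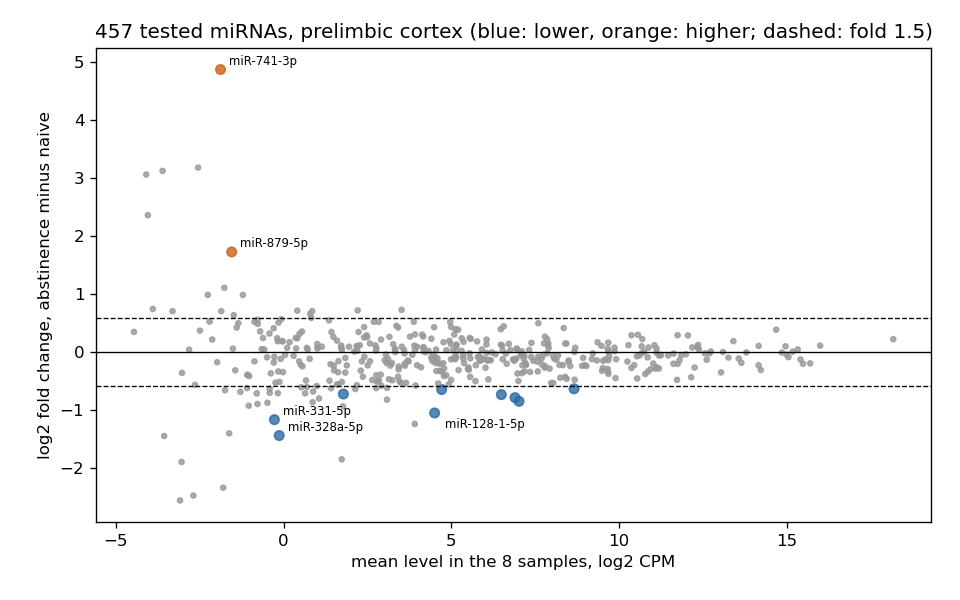
Log2 fold change (abstinence minus naïve, y axis) of the 457 tested miRNAs in the PL against their mean level in the 8 samples (log2 CPM, x axis), 1 point per miRNA, with miRNAs past the thresholds in blue (lower, 9) and orange (higher, 2) and those beyond a log2 fold change of 1 named. The 2 higher miRNAs and 2 of the lower ones, miR-328a-5p and miR-331-5p, lie at low levels, and the most abundant miRNAs lie near 0.

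Over all 457 miRNAs the median log2 fold change was -0.09, and 279 (61.1%) were below 0. Without rat M378 the median was -0.000868. With all 8 rats it was -0.0101 with RLE size factors, -0.00957 with DESeq2, -0.037 with limma-voom and 0.0175 with the 8 PL samples alone. It was -0.102 without RIN and -0.0975 with a stricter filter. The median thus depended on the scaling and the samples fitted, and the 61.1% holds for the main fit only.

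The lowest p belonged to miR-128-1-5p, the passenger arm of one of the hairpins that give miR-128-3p. Its level was 13.6, 21.6, 22.6 and 12.3 CPM in abstinence rats M170, M363, M472 and M456, and 30.1, 58, 19.7 and 24.3 CPM in naïve rats M157, M378, M476 and M480. M378 was the highest of all, and naïve rat M476 was below 2 of the abstinence rats, so the groups overlapped. The fitted level was 2.08-fold lower after abstinence (log2FC = -1.05, SE = 0.30, edgeR p = 0.00119, adjusted p = 0.428, exact permutation p = 0.114), where the exact permutation test takes the log2 levels through all 70 ways to split the 8 rats and is two-sided. Without M378 the log2FC was -0.59, barely past the fold threshold, and the call was lost on the p threshold alone. The other arms of the family did not pass the thresholds. miR-128-3p had a log2FC of 0.22 (SE = 0.30, edgeR adjusted p = 0.991). miR-128-2-5p, the passenger arm of the second hairpin, had a log2FC of -0.15 (SE = 0.29, edgeR adjusted p = 0.991). Whether the arms differed in their change was not tested.

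miR-328a-5p is the rare arm of miR-328, whose 3p arm is among the 10 most abundant miRNAs of these samples. It was counted 6, 3, 3 and 10 times in abstinence rats M170, M363, M472 and M456, and 12, 22, 8 and 11 times in naïve rats M157, M378, M476 and M480. In CPM every abstinence rat (0.251 to 0.998) was below every naïve rat (1.05 to 2.58). It was the only called miRNA whose groups did not overlap, against 5 tested miRNAs that were wholly lower (1.09%) and 2 that were wholly higher (0.438%). The log2FC was -1.44 (SE = 0.47, edgeR p = 0.00479, adjusted p = 0.547, exact permutation p = 0.0286), and this permutation p is the smallest that 4 rats against 4 can give. The log2FC without M378 was -0.89, still past the fold threshold, and the call was lost on the p threshold alone. miR-328a-3p, at 39400 to 50300 CPM after abstinence and 28500 to 71500 CPM in naïve rats, had a log2FC of -0.13 (SE = 0.22, edgeR adjusted p = 0.991). The log2 difference between the 5p and 3p arms within each rat was -17.2 to -15.2 after abstinence and -15 to -14.6 in naïve rats.

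miR-873-3p was more abundant and fell 1.81-fold (log2FC = -0.85, SE = 0.30, edgeR p = 0.00716, adjusted p = 0.646, exact permutation p = 0.114). Its level was 115, 98.3, 111 and 82.8 CPM after abstinence, in the order of rats given above, and 222, 261, 88.7 and 148 CPM in naïve rats. Naïve rat M476 lay among the abstinence rats, and the other naïve rats were above them all. The opposite arm miR-873-5p spanned 46.7 to 75.6 CPM after abstinence and 51.7 to 64.8 CPM in naïve rats (log2FC = -0.07, SE = 0.18, edgeR adjusted p = 0.991). Without M378 the log2FC of miR-873-3p was -0.55 and no longer passed.

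miR-664-2-5p, miR-667-3p, miR-501-3p and miR-3099 showed a like order of rats. miR-664-2-5p stood at 54.4, 67, 97.2 and 79.1 CPM after abstinence and at 117, 215, 91.8 and 65.6 CPM in naïve rats (log2FC = -0.74, SE = 0.27, edgeR p = 0.0115, adjusted p = 0.749, exact permutation p = 0.229). M378 was the highest and the groups overlapped widely. miR-664-1-5p, which differs from it at 1 base (U15A, with miR-664-2-5p first), had at most 6 counts in a sample, and how reads were shared between such near-identical arms is not given in the sources used here. Its partner miR-664-3p had a log2FC of -0.32 (SE = 0.35, edgeR adjusted p = 0.991).

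miR-667-3p, of the Dlk1-Dio3 locus, stood at 98.7, 109, 124 and 70.3 CPM after abstinence and at 169, 284, 88.8 and 102 CPM in naïve rats (log2FC = -0.79, SE = 0.33, edgeR p = 0.0231, adjusted p = 0.768, exact permutation p = 0.257). Naïve rats M476 and M480 lay within the abstinence range. miR-667-5p had a log2FC of -0.27 (SE = 0.21, edgeR adjusted p = 0.917).

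miR-501-3p stood at 24.2, 28, 20.2 and 18.1 CPM after abstinence and at 27.4, 54.6, 25.2 and 23.4 CPM in naïve rats (log2FC = -0.65, SE = 0.27, edgeR p = 0.0231, adjusted p = 0.768, exact permutation p = 0.2). Only M378 was above all abstinence rats. miR-3099 stood at 315, 344, 464 and 262 CPM after abstinence and at 498, 844, 369 and 341 CPM in naïve rats (log2FC = -0.64, SE = 0.29, edgeR p = 0.0342, adjusted p = 0.768, exact permutation p = 0.171). M157 and M378 were above all abstinence rats. Without M378 the log2FC was -0.19 for miR-664-2-5p, -0.33 for miR-667-3p, -0.23 for miR-501-3p and -0.21 for miR-3099. The call of miR-664-2-5p was also lost without M170, that of miR-667-3p without M363, M456 or M157, that of miR-501-3p without M363, M472 or M456, and that of miR-3099 without M170, M363, M456 or M157, at log2FC values between -0.93 and -0.19, -0.96 and -0.33, -0.78 and -0.23, and -0.79 and -0.21 over the 8 rats left out in turn.

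miR-331-5p and miR-194-3p were rarer. miR-331-5p was counted 1, 7, 7 and 9 times after abstinence and 5, 11, 16 and 13 times in naïve rats (log2FC = -1.17, SE = 0.51, edgeR p = 0.0289, adjusted p = 0.768, exact permutation p = 0.0857). It was the only one of the 9 lower miRNAs in which M378 was not the highest naïve rat. Without M378 its log2FC was -1.05, still past the fold threshold, and the call was lost on p (edgeR p = 0.0688). miR-194-3p was counted 25, 28, 31 and 28 times after abstinence and 34, 67, 21 and 27 times in naïve rats (log2FC = -0.73, SE = 0.36, edgeR p = 0.0495, adjusted p = 0.873, exact permutation p = 0.0857). The abstinence rats lay close together, and the spread was among the naïve rats. Without M378 its log2FC was -0.21. The opposite arms miR-331-3p (log2FC = -0.13, SE = 0.16, edgeR adjusted p = 0.991) and miR-194-5p (log2FC = -0.05, SE = 0.36, edgeR adjusted p = 0.991) did not pass the thresholds. The call of miR-331-5p was also lost without M170, M472, M476 or M480 (log2FC -1.43 to -0.79 over the 8 rats), and that of miR-194-3p without any rat but M476 and M480 (-0.87 to -0.21).

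**Figure D2:**
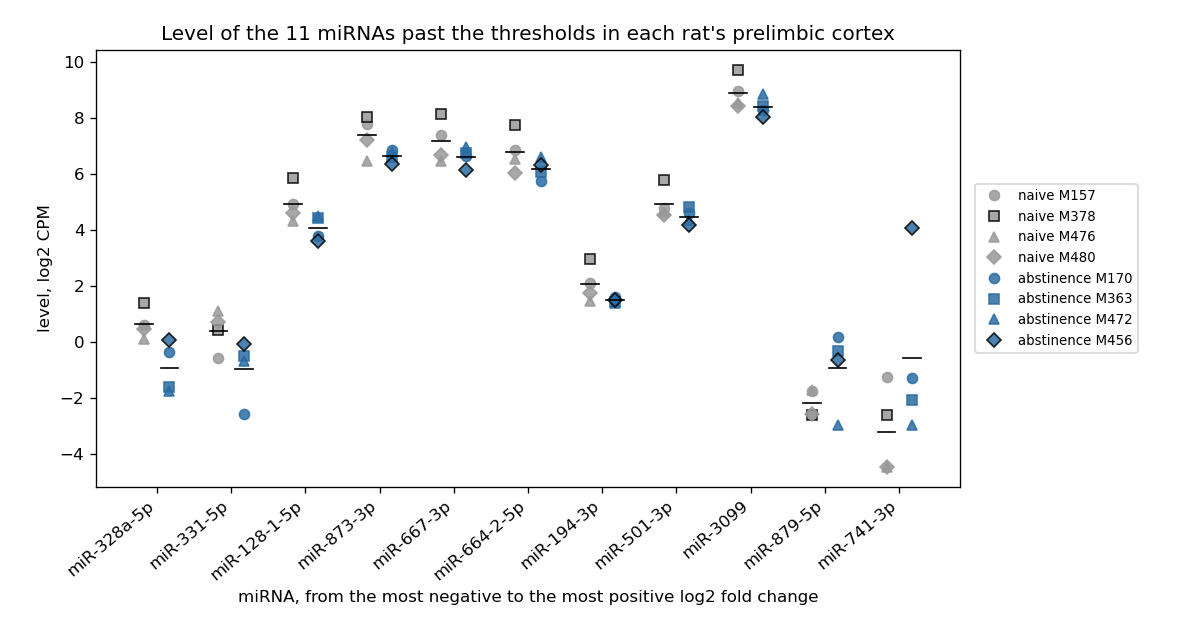
Level (log2 CPM, y axis) of the 11 miRNAs past the thresholds in the PL of each rat, with naïve rats in grey, abstinence rats in blue, a shape for each rat, black outlines for M378 and M456, and a bar at each group mean (n = 4). M378 is the highest naïve rat for 8 of the 9 lower miRNAs, and M456 alone is high for miR-741-3p.

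Naïve rat M378 was thus the highest of the 8 rats for 8 of the 9 lower miRNAs, and it was above the median of the 8 rats for all 9. M157 was above that median for 8, M476 and M480 for 5 each, and the abstinence rats for 1 to 4. On the first principal component of the 8 samples (34.6% of the variance) M157 and M378 lay at 10.65 and 14.39, M476 and M480 at -12.05 and -7, and the abstinence rats between, from -3.16 to 0.27. Summed levels of marker lists also differed among the naïve rats. The summed level of 15 vascular, stromal and blood miRNAs was 1570 CPM in M378 and 2982, 8645 and 5954 CPM in M157, M476 and M480, against 3410 to 5930 CPM after abstinence. Of these 15 miRNAs, 10 were tested, 6 were below 0, and miR-126b, miR-214-5p and miR-451-3p had no count in the 8 samples. A set of 21 NAc-enriched miRNAs, chosen on the withdrawal rats, summed to 1900 CPM in M378, 2494 CPM in M157, 6410 CPM in M476 and 5594 CPM in M480, against 3220 to 4220 CPM after abstinence. A set of 15 PL-enriched miRNAs, chosen in the same way, summed to 98100 CPM in M378, 49800 to 65740 CPM in the other naïve rats and 57700 to 60300 CPM after abstinence. Each sum was led by few members, by mean log2 CPM in the 8 samples. These were let-7c-5p (15.48) and let-7b-5p (13.64) of the PL set, with miR-125b-1-3p next (9.66). In the vascular list they were miR-126a-3p (11.19) and miR-143-3p (10.56), and in the NAc set miR-7a-5p (10.61) and miR-7b (9.34). M378 was also the lowest naïve rat for the oligodendrocyte and the choroid plexus and ependymal lists, but lay inside the naïve range for the immune and microglial (2775 CPM), muscle (87.2 CPM) and epithelial and sensory (109 CPM) lists. The part of these levels in the 9 lower calls was not tested.

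**Figure D3:**
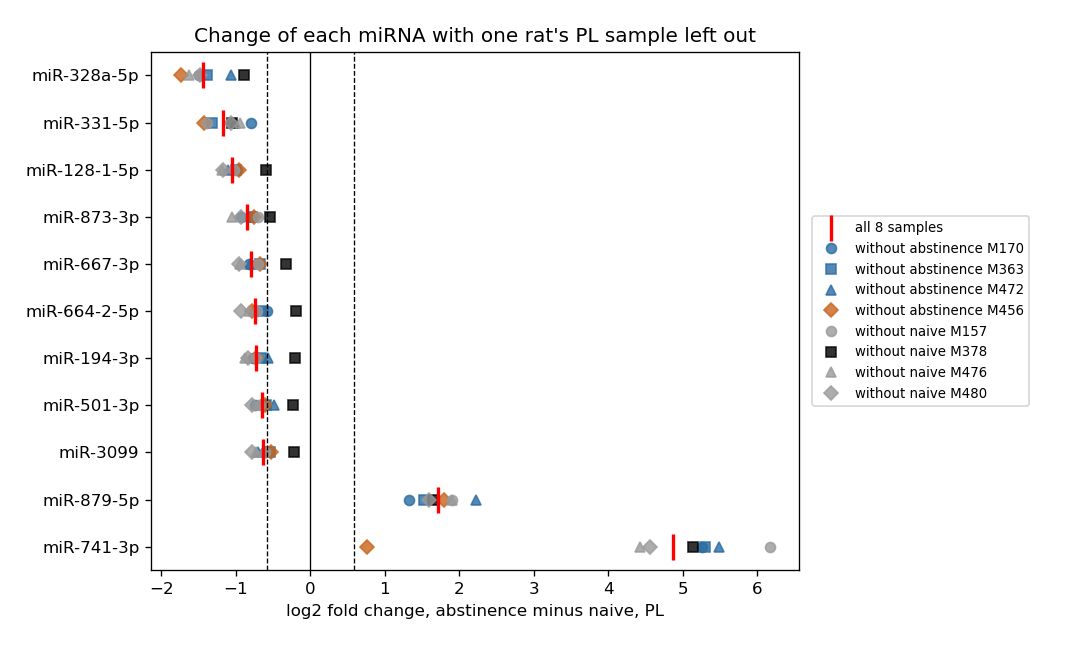
Log2 fold change (abstinence minus naïve, x axis) of each of the 11 miRNAs in the PL with all 8 samples (red bar) and with each rat's PL sample left out in turn (points), with dashed lines at a fold of 1.5. The points without M378 (black squares) lie nearest to 0 for 8 of the 9 lower miRNAs, the exception being miR-331-5p, and the point without M456 (orange diamond) takes miR-741-3p from 4.87 to 0.77.

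The 2 higher miRNAs were both rare, and neither had enough counts to be tested when only PL samples were used. miR-741-3p is encoded on the X chromosome in a cluster known for its expression in the testis. It was counted 3, 2 and 1 times in abstinence rats M170, M363 and M472, 169 times in M456, and 3, 1, 0 and 0 times in naïve rats M157, M378, M476 and M480. The difference was that of 1 rat. The fitted log2FC was 4.87 (SE = 1.58, edgeR p = 0.0044, adjusted p = 0.547, exact permutation p = 0.2), which depends on the prior count at such levels. Without M456 it was 0.77 and did not pass, and limma-voom did not call it. miR-879-5p was counted 9, 8, 1 and 6 times after abstinence and 2, 1, 2 and 1 times in naïve rats (log2FC = 1.72, SE = 0.75, edgeR p = 0.0286, adjusted p = 0.768, exact permutation p = 0.171). All abstinence rats but M472 were above the naïve rats in CPM. It was lost without M170, M363, M378 or M480, and with limma-voom (log2FC = 1.11), with or without the rat as a block (1.13 with it).

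Other members of the X-linked cluster were also counted in the PL of M456. Of 26 mature miRNAs of the table within 200000 bases of the miR-741 hairpin, grouped after the values were seen, 11 had counts in the PL of M456, summing to 293. In the other 7 PL samples the sum was at most 5. miR-871-3p was counted 73 times in M456 and at most 4 times in another rat, and miR-743a-3p 14 times and at most once. The neighbouring IL sample of M456 held 186 counts of the cluster, while the other abstinence IL samples held at most 5. Among the other rats the IL held 100 and 42 counts in withdrawal rats M153 and M366, and at most 15 in any other. All 12 NAc samples held the cluster, at 15.6 to 41.2 CPM, with 29.2 CPM in the PL of M456. The 21 NAc-enriched miRNAs summed to 3554 CPM in that PL sample, within the other abstinence rats (3220 to 4220 CPM) and below all NAc samples (8430 to 35140 CPM). The source of the cluster counts in M456 was not tested.

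**Figure D4:**
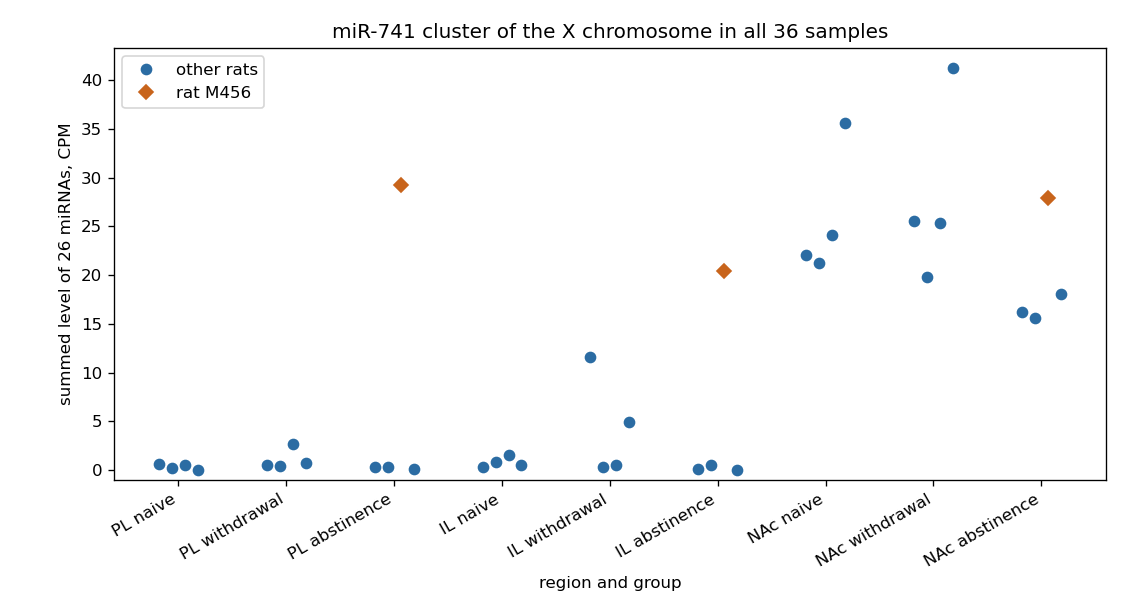
Summed level (CPM, y axis) of the 26 miRNAs of the miR-741 cluster in each of the 36 samples by region and group (x axis), with rat M456 as orange diamonds and other rats as blue points. The PL of M456 stands at 29.2 CPM while the other PL samples lie below 3 CPM, and all NAc samples lie above 15 CPM.

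Below the fold change of 1.5, 8 further miRNAs were lower and 3 were higher at an unadjusted p under 0.05, giving 17 lower (3.72%) and 5 higher (1.09%) in all. In some of these the abstinence and naïve rats did not overlap. miR-412-5p stood at 60, 58.9, 62.1 and 53.5 CPM after abstinence and at 69.5, 77.1, 95 and 83.1 CPM in naïve rats, with no overlap (log2FC = -0.48, SE = 0.17, edgeR p = 0.00848, adjusted p = 0.646, exact permutation p = 0.0286). M378 was not the extreme rat here, and without it the log2FC was -0.40. The other arm, miR-412-3p, had a log2FC of 0.03 (SE = 0.19, edgeR adjusted p = 0.991). miR-337-5p stood at 902, 862, 892 and 696 CPM after abstinence and at 1010, 1470, 922 and 1010 CPM in naïve rats (log2FC = -0.45, SE = 0.18, edgeR p = 0.0154, adjusted p = 0.768, exact permutation p = 0.0286). miR-135a-3p stood at 48.9, 43.2, 43.9 and 46.4 CPM after abstinence and at 57.8, 96.4, 49.1 and 49.9 CPM in naïve rats (log2FC = -0.51, SE = 0.22, edgeR p = 0.0265, adjusted p = 0.768, exact permutation p = 0.0286). In both the groups did not overlap, by a narrow margin at M476. For miR-337-5p and miR-135a-3p the log2FC without M378 was -0.20 and -0.13.

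miR-329-5p (log2FC = -0.54, SE = 0.16, edgeR p = 0.00187, adjusted p = 0.428, exact permutation p = 0.229) and miR-370-5p (log2FC = -0.54, SE = 0.22, edgeR p = 0.0199, adjusted p = 0.768, exact permutation p = 0.0571) had overlapping groups. miR-329-5p was 137 to 294 CPM after abstinence and 248 to 382 CPM in naïve rats, with M456 the lowest. miR-370-5p was 7.08 to 12 CPM after abstinence and 11.5 to 15.6 CPM in naïve rats, and its abundant opposite arm miR-370-3p had a log2FC of -0.04 (SE = 0.27, edgeR adjusted p = 0.991). The last of the wholly lower miRNAs was miR-129-1-3p (log2FC = -0.48, SE = 0.22, edgeR adjusted p = 0.768).

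Among the higher miRNAs that did not reach a fold of 1.5, miR-130a-3p was 16.8, 17.7, 21.2 and 15.7 CPM after abstinence and 11.4, 9.14, 13.6 and 15.6 CPM in naïve rats (log2FC = 0.52, SE = 0.21, edgeR p = 0.0173, adjusted p = 0.768, exact permutation p = 0.0286). The groups did not overlap, M456 and M480 being nearly level, and the log2FC stayed between 0.49 and 0.67 with any 1 rat left out. The second wholly higher miRNA was miR-29b-3p (log2FC = 0.39, SE = 0.22, edgeR adjusted p = 0.873). let-7b-3p, the passenger arm of let-7b, was 168 to 312 CPM after abstinence and 117 to 194 CPM in naïve rats (log2FC = 0.49, SE = 0.21, edgeR p = 0.0255, adjusted p = 0.768, exact permutation p = 0.2). let-7i-3p had a log2FC of 0.52 (SE = 0.26, edgeR p = 0.0564, adjusted p = 0.873, exact permutation p = 0.114). miR-210-3p, known as a miRNA induced by low oxygen, was 41.8, 42.9, 43.8 and 25.4 CPM after abstinence and 26.1, 26.5, 23 and 32.7 CPM in naïve rats (log2FC = 0.43, SE = 0.19, edgeR p = 0.0306, adjusted p = 0.768, exact permutation p = 0.114). M456 alone lay among the naïve rats. Some of these miRNAs passed the thresholds with 1 rat left out: miR-130a-3p without M456 or M480, let-7b-3p without M472 (or M378, at 0.65), let-7i-3p without M170, M456, M157 or M378 (0.59), miR-210-3p without M456 (0.60), miR-370-5p without M170 and miR-135a-3p without M480. With all 8 samples, miR-130a-3p also passed with DESeq2 (0.62), RLE size factors (0.62), no filter on low counts (0.59) and the 12 PL samples alone (0.61), let-7i-3p with DESeq2 (0.60), RLE size factors (0.60) and no RIN (0.59), and let-7b-3p with the 12 (0.70) or 8 (0.66) PL samples alone.

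Of 84 tested miRNAs of the Dlk1-Dio3 locus, 1 (miR-667-3p) passed the thresholds and 7 were lower at an unadjusted p under 0.05, beside 17 of all 457. These 7 were miR-329-5p, miR-412-5p, miR-337-5p, miR-370-5p, miR-667-3p, miR-134-5p and miR-540-3p. The median log2FC of the 84 was -0.14 beside -0.09 over all tested miRNAs, and -0.06 without M378. Its most abundant members, miR-127-3p (log2FC = -0.20, SE = 0.16, edgeR adjusted p = 0.925) and miR-543-3p (log2FC = -0.10, SE = 0.18, edgeR adjusted p = 0.991), did not pass. All 5 tested members of the Clcn5 cluster had values below 0, with 1 past the thresholds and a median of -0.59, or -0.22 and 0 lower calls without M378, beside 61.1% below 0 and 2.41% called over all tested miRNAs. The cluster is that of the called miR-501-3p, so this 1 call was set by the choice of cluster. miR-500-3p, which has the seed of miR-501-3p, was at -0.59 (SE = 0.32, edgeR adjusted p = 0.873), and miR-532-5p, the most abundant, at -0.13 (SE = 0.24, edgeR adjusted p = 0.991).

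Of 26 tested neuron-enriched miRNAs, 1 was past the thresholds (miR-128-1-5p), 18 (69.2%) were below 0 and the median was -0.12, beside 61.1% below 0 and 2.41% called over all tested miRNAs. Without M378 the call was lost, 14 were below 0 and the median was -0.05. Their summed level was 314000 to 485000 CPM after abstinence and 235000 to 565000 CPM in naïve rats. Most of it was miR-128-3p, at 236000 to 392000 CPM after abstinence and 168000 to 453000 CPM in naïve rats. miR-124-3p, a regulator of neuronal identity, had a log2FC of -0.03 (SE = 0.21, edgeR adjusted p = 0.991), and miR-9a-5p one of 0.38 (SE = 0.42, edgeR adjusted p = 0.991). None of 6 activity-regulated miRNAs passed the thresholds. All 6 were below 0, with a median of -0.25 (5 below 0 without M378). miR-132-3p, which neuronal activity induces through CREB, had a log2FC of -0.21 (SE = 0.17, edgeR adjusted p = 0.933), and miR-212-3p of the same cluster one of -0.43 (SE = 0.28, edgeR adjusted p = 0.875). miR-134-5p, which restrains dendritic spine size, had a log2FC of -0.38 (SE = 0.17, edgeR adjusted p = 0.768). Of 12 miRNAs linked to cocaine in rodent work, including miR-181a-5p (log2FC = 0.10, SE = 0.15, edgeR adjusted p = 0.991) and let-7d-5p (log2FC = -0.23, SE = 0.15, edgeR adjusted p = 0.875), 0 passed, and the median was -0.16, or -0.10 without M378.

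In the seed families and hairpin groups the counts past the thresholds were 0 of 17 for let-7 (median 0.10), 0 of 6 for miR-29 (0.23), 0 of 13 for miR-30 (-0.000457), 0 of 15 for the miR-17 family and its clusters (0.05), 0 of 8 for miR-181 (-0.00486), 0 of 13 for miR-125 and miR-99 (-0.01) and 0 of 6 for the miRNAs hosted by the serotonin receptor gene Htr2c (-0.03). In the small hairpin groups it was 1 of 3 for miR-128 (median -0.15), 1 of 3 for miR-328 (-0.62), 1 of 2 for miR-664 (-0.53) and 1 of 2 for miR-873 and miR-876 (-0.46). These calls are the miRNAs described above, beside 2.41% called over all tested miRNAs. The small groups hold the relatives of called miRNAs, so 1 call in each was set by that choice and shows no excess. Without M378 none of these 4 lower calls was left, and the medians were 0.14 for miR-128, -0.24 for miR-328, -0.20 for miR-664 and -0.30 for miR-873 and miR-876. The medians of miR-30, miR-181 and of miR-125 and miR-99 turned to 0.09, 0.07 and 0.05. let-7a-1-3p and let-7c-2-3p had the same value in every fit and count as 1 measurement.

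Markers of other cell types gave no call. Of the vascular, stromal and blood list 0 of 10 passed (median -0.08), of the oligodendrocyte list 0 of 4 (median 0.18), of the immune and microglial list 0 of 6 (median -0.17, or -0.03 without M378) and of the muscle list 0 of 4 (median 0.01, or 0.09 without M378). All 8 tested choroid plexus and ependymal miRNAs were above 0, with a median of 0.19, beside 178 of all 457 tested miRNAs above 0. Without M378, 1 of the 8 was below 0 and the median was 0.24. The summed level of the listed miRNAs was 1360 to 1910 CPM after abstinence and 1160 to 1540 CPM in naïve rats. The most abundant of them, miR-204-5p, had a log2FC of 0.29 (SE = 0.20, edgeR adjusted p = 0.899), and miR-449a-3p, miR-449c-3p and miR-449c-5p had no count in the 8 samples. Of 12 tested epithelial and sensory miRNAs 11 were below 0 with a median of -1.35, beside 61.1% below 0 over all tested miRNAs. Without M378, 9 were below 0. None passed, and 8 of the 21 listed had no count. Their summed level was 280 CPM in naïve rat M157 and 64.9 to 109 CPM in the other 7 rats.

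The change in the PL was set against that in the IL and the NAc of the same rats in 1 model. That model had no term for the rat, so its SE values treat the regions of a rat as independent. The 9 lower miRNAs were chosen on their PL change, which is part of each of these differences, so the values describe them and do not test them independently. In the IL, the log2FC of 8 of the 9 was above 0 and that of miR-873-3p was below, and in the NAc 4 were above 0 and 5 below. The share of all tested miRNAs above 0 in these regions is not given here. The counts of direction are thus not read as an opposite change. None of the 9 had an edgeR p under 0.05 in either region. Over all 457 miRNAs the PL change differed from the IL change past the thresholds for 38 (8.32%) and from the NAc change for 17 (3.72%). After adjustment 0 did, by edgeR (39 and 17 with an unadjusted p under 0.05) or by limma-voom (38 and 12).

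Of the 9 lower miRNAs, 7 were among the 38 for the IL and 3 among the 17 for the NAc (miR-128-1-5p, miR-501-3p and miR-3099). Without the PL sample of M378 these became 2 (miR-128-1-5p and miR-331-5p) and 0. The NAc call of miR-3099 was lost with the rat as a fixed block (-0.75 in place of -0.83), with limma-voom and without the PL sample of M456, which left 2. For the IL the same 7 passed with the rat as a fixed block. miR-128-1-5p had a log2FC of 0.28 in the IL (SE = 0.30) and 0.01 in the NAc (SE = 0.30), and its PL change differed from these by -1.33 (SE = 0.41, edgeR adjusted p = 0.416) and by -1.07 (SE = 0.41, edgeR adjusted p = 0.866). miR-501-3p differed by -1.13 from the IL (SE = 0.38, edgeR adjusted p = 0.416) and by -0.91 from the NAc (SE = 0.38, edgeR adjusted p = 0.866). miR-873-3p, with -0.19 in the IL and -0.24 in the NAc, differed by -0.66 (SE = 0.41, edgeR adjusted p = 0.598) and -0.61 (SE = 0.41, edgeR adjusted p = 0.866). Without the PL sample of M378 the PL and IL changes differed past the thresholds for 12 miRNAs and the PL and NAc changes for 7. With the rat as a fixed block 11 differed between PL and NAc, and without the PL sample of M456 11 did.

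miR-741-3p had a log2FC of 2.998 in the IL (SE = 1.35, edgeR adjusted p = 0.426), where M456 held most of its counts too, and -0.02 in the NAc (SE = 1.16, edgeR adjusted p = 0.993). miR-412-5p had a log2FC of -0.50 in the IL (SE = 0.17, edgeR adjusted p = 0.287) beside -0.48 in the PL, and -0.16 in the NAc (SE = 0.17, edgeR adjusted p = 0.887). miR-210-3p had 0.36 in the IL (SE = 0.19, edgeR adjusted p = 0.46) and 0.46 in the NAc (SE = 0.19, edgeR adjusted p = 0.887) beside 0.43 in the PL.

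**Figure D5:**
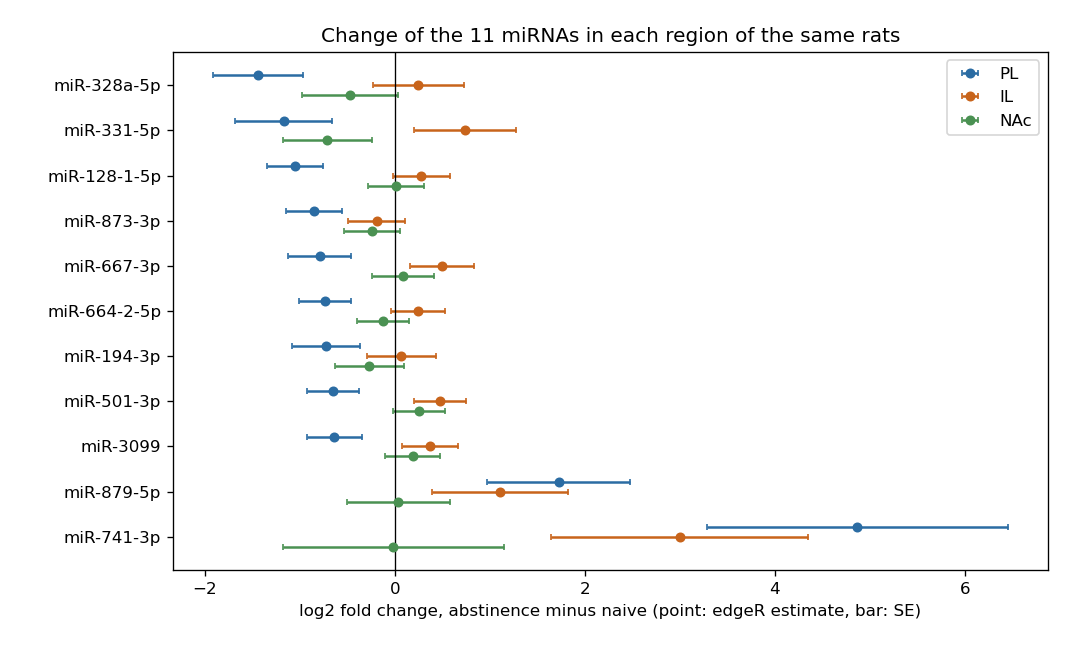
Log2 fold change (abstinence minus naïve, x axis) of the 11 miRNAs in the PL (blue), IL (orange) and NAc (green) of the same rats, as edgeR estimates with SE bars (n = 4 rats a group). The 9 lower miRNAs lie left of 0 in the PL, and 8 of them right of 0 in the IL. None of these 9 had an edgeR p under 0.05 in the IL. miR-741-3p lies right of 0 in both cortical regions.

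The PL of the acute withdrawal rats was read against the same 4 naïve rats, so the changes share their controls and M378. miR-128-1-5p stood at 13.9, 15.2, 19.2 and 19.9 CPM in withdrawal rats M153, M366, M172 and M154 (log2FC against naïve = -0.85, SE = 0.29, edgeR adjusted p = 0.624), beside 12.3 to 22.6 CPM after abstinence. miR-873-3p stood at 95, 133, 77.9 and 113 CPM (log2FC = -0.76, SE = 0.29, edgeR adjusted p = 0.624) beside 82.8 to 115 CPM, and miR-667-3p at 92.8, 89.8, 60.3 and 97.1 CPM (log2FC = -0.84, SE = 0.33, edgeR adjusted p = 0.624) beside 70.3 to 124 CPM. The ranges of the withdrawal and abstinence rats overlapped for each of these miRNAs.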

How the data were processed

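Total RNA from each dissected region was made into small RNA libraries (NEBNext). Per the study's methods, the authors processed reads and counted mature miRNAs with CAP-miRseq. The study describes its deposited counts as normalized, but the table used here is named as raw and its deposited values are whole-number counts with unequal totals, so they were taken as raw read counts. The study names rat assembly rn6 and the submitters' processing notes name mRatBN7.2 (rn7), so no coordinate of the counts is used. The aligner's version is not given in the sources used here. Samples were grouped by their labels, and rats were identified from the study's sample table, 1 naïve NAc sample by elimination. Libraries were sequenced in pools whose members are not given.

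All 36 samples were fitted in edgeR 4.0.16 (R 4.3.3) with filterByExpr (minimum count 10, minimum total 15), TMM, 9 group-by-region means and RIN as a covariate. SE values are approximate. Log2 CPM was computed with 0.5 as the prior count. limma 3.58.1, DESeq2 1.42.0, other filters, scalings and sample sets, and leaving out each rat were tried. The filter was re-applied in each. The rats pair the regions, and the consensus correlation within a rat was 0.117. The fit was tested on simulated counts of 442 miRNAs. Of 90 changed 2-fold 64.4% were called in the right direction, and of 104 changed 4-fold 96.2%. Of 248 left unchanged 6.45% passed the same thresholds. The simulated spread and number of changes differ from those of the data, so these shares are not rates for it. Of the names, 645 of 723 matched the RefSeq sequence table (GRCr8). Figures used matplotlib 3.10.9.

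miRNAs are named if past the thresholds (with their other arm, cluster or seed relatives), among the 5 lowest p in each direction not past them, among the 10 most abundant, or as the most abundant or called members of a list. miR-129-1-3p, miR-29b-3p, miR-540-3p and miR-743a-3p were named after their values were seen. The members and lists were chosen with earlier results of these data known. The NAc- and PL-enriched sets hold miRNAs of a log2 level of at least 5 with a regional difference of at least 1.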

Additional observations from a re-analysis of the deposited data

Results flagged for a closer look

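In the group of 4 abstinence rats, miR-210-3p in the PL of M456 was far from the others, at 4.67 log2 CPM with the nearest rat at 5.39, a gap of 0.912 of the whole range against Dixon's limit of 0.829 for 4 samples. This was 1 of 42 groups of 4 examined, and chance alone flags about 1 in 20 groups.

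The 22 members of the X-linked miR-741 cluster that had too few counts to be tested summed to 34 counts in the PL of abstinence rat M456 and to at most 0 in a naïve PL sample.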

How the results depend on the processing

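All 11 called miRNAs kept their direction under every setting in which they were tested, and 0 had an adjusted p under 0.05 in any. miR-873-3p and miR-128-1-5p passed in all 9 other settings, and miR-328a-5p in all 7 that tested it, but each was lost without naïve rat M378. miR-194-3p passed in 0 of 8, miR-3099 in 1 of 9, miR-501-3p in 3 of 9, miR-667-3p in 4 of 9, miR-664-2-5p in 7 of 9, miR-331-5p in 6 of 7, miR-741-3p in 5 of 7 and miR-879-5p in 4 of 6. With the 12 or the 8 PL samples alone miR-741-3p and miR-879-5p were not tested, and with the 8 neither were miR-328a-5p and miR-331-5p. Of the 11, 8 recurred with DESeq2, RLE or no filter, 7 with the stricter filter or no RIN, 6 with limma-voom, 3 with the 12 PL samples alone and 2 with the 8. The cause was not tested.

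The 11 calls (2 higher, 9 lower) became 8 with limma-voom (1 higher), 13 with DESeq2 (7 higher), 12 with RLE size factors (6 higher), 17 with no filter (8 higher), 7 with a filter of 10 CPM in 4 samples (1 higher), 14 without RIN (4 higher), 7 with the 12 PL samples alone (4 higher, 3 lower) and 5 with the 8 samples alone (3 higher, 2 lower). With the rat as a random replicate block in limma-voom they became 10 (1 higher). With the rat as a fixed block in edgeR, 11 miRNAs in place of 17 differed between the PL and NAc changes.

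Leaving out 1 rat gave 6 to 21 calls, 3 to 11 higher and 0 to 16 lower. There were 6 calls (6 higher, 0 lower) without M378, of which 1 was among the 11, 10 without M363 or M157, 11 without M456, 13 without M170, 18 without M476 and 21 without M472 or M480. Without both M456 and M378, chosen after seeing the data, 4 passed (2 higher and 2 lower, miR-328a-5p and miR-331-5p), and miR-871-3p turned from 3.18 to -2.80, while it ranged from -2.35 (without M456) to 4.20 with 1 rat left out. Without M378 the PL minus IL and PL minus NAc differences numbered 12 and 7, and without M456 28 and 11. In PL minus IL, miR-741-3p was 2.21 without M378 and turned to -1.82 without M456. In PL minus NAc, miR-194-3p was -0.46 without M456 and turned to 0.0395 without M378. At under 25 counts in each sample, as for miR-328a-5p, miR-331-5p and miR-879-5p, depth limits the precision.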
